A study of Mus musculus with 21 samples.

Results

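Nonclassical patrolling monocytes were picked from single-cell RNA sequencing of mouse tissues. These were lung metastases and primary tumors of mice carrying a transplanted malignant melanoma, and lungs of other mice without a tumor. A cell was taken as a member when it carried a unique molecular identifier (UMI, 1 captured RNA molecule) of at least 3 of the 8 genes Cd300e, Treml4, Adgre4, Spn, Eno3, Pou2f2, Apoc2 and Fcgr4, of fewer than 2 of the 3 complement genes C1qa, C1qb and C1qc that mark tissue macrophages, and none of F13a1, Cd79a, Trac, Nkg7 and Col1a2, which mark classical monocytes, B cells, T cells, NK cells and fibroblasts. This gave 4627 members among 51511 cells of the tumor microenvironment (TME) and of unchallenged lung. Of the members, 4396 came from unchallenged lung, 185 from lung metastases and 46 from primary tumors. Because measured values of these 16 genes chose the members, their levels are given as a description and were not tested.

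Nonclassical monocytes arise from classical, Ly6c2-high monocytes in the blood under control of the nuclear receptor Nr4a1, and crawl along the inner wall of small vessels, where they take up debris and immune complexes. They are held at the vessel wall by the fractalkine receptor Cx3cr1 and the integrin LFA-1, of which Itgal is a subunit. The capillary bed of the lung is one of the sites where they are found in numbers, and in mouse models they are known for clearing tumor cells that lodge there.

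Host mice were mT/mG animals (allele tm4(ACTB-tdTomato,-EGFP)Luo of the Gt(ROSA)26Sor locus), of both sexes, in which every host cell carries red fluorescent tdTomato, since no Cre was present. MT-ret melanoma fragments, which are not fluorescent, were placed under the skin and grown as primary tumors, which were removed by surgery, and the mice were then followed until lung metastases formed. Lung metastasis TME and primary tumor TME are the tdTomato+ cells of those tissues, and unchallenged lung is the lung of mT/mG mice without a tumor. Cell suspensions were frozen, thawed and sorted before 10x 3' libraries were made. The sort kept live red cells, in part of the libraries with CD45+ cells gated out. That second gate removes leukocytes, members included, and which gate was used is not given for each library. The sample labels give replicate 1-3 as 1 sample for metastasis and 1 for primary tumor, while the cells carry 2 and 3 library names with 1 mouse each. These were summed to 1 library per label, so the spread between those mice is not in the tests. The other libraries are from 1 mouse each. The library taken as unchallenged lung replicate 1 carries another replicate number in its name, and was matched as the only lung name left. By the mouse numbers in the library names used, primary tumor and metastasis libraries share mice in replicates 1-3 (2 mice), 5 and 6 (1 mouse each), but not in replicate 4, and no mouse is shared with unchallenged lung.

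The TME and lung data comprised 12 libraries once those with identical barcodes and counts were counted once and the names under replicate 1-3 were summed, namely 4 of lung metastasis, 4 of primary tumor and 4 of unchallenged lung. Replicates 5 and 6 of metastasis and of primary tumor were also deposited as replicates 7 and 8, with the same barcodes and counts. Those names carry other mouse numbers, so which mice these libraries came from is uncertain. Metastasis replicate 6 was deposited once more, with the same barcodes and counts, under a name for sorted melanoma cells, so that its gate is in doubt. The 12 libraries held 303 to 25966 cells and 1777036 to 53506609 UMIs, and shared at most 0.908% of the barcodes of the smaller library of a pair. Cells with a UMI of Ptprc, the gene of the leukocyte antigen CD45, made up 0.66% and 0.0839% of primary tumor replicates 5 and 6, 2.26% of metastasis replicate 5, 29.5% of metastasis replicate 6 and 36.7% of lung replicate 1, against 63.4% to 80.4% in the other libraries. The first 2 of these held no member. Lung replicate 6 stood apart, with 2745 members at a median of 2034 UMIs, whereas the median was 2507 to 7698 UMIs per member in the other 9 libraries with members. Of its members, 1378 carried exactly 3 of the 8 markers. The sum of member UMIs, which sets the precision of a level, ran from 48625 in metastasis replicate 5 to 7215749 in lung replicate 6.

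One of the 8 markers, Fcgr4, encodes the low-affinity activating IgG receptor that nonclassical monocytes carry, and lies on chromosome 1 (GRCm38, 171018920 to 171029761, forward strand). The 250 bases before its RefSeq start (GRCm38.p6, chr1:171018676-171018925, forward strand) are shown because they hold the only match, upstream of a start, to any of 3 sequence motifs searched at the marker genes. The capitals mark GAGGAAGT, the core bound by the myeloid factor PU.1, read here on the opposite strand and 24 bases before the start.
Fcgr4 promoter: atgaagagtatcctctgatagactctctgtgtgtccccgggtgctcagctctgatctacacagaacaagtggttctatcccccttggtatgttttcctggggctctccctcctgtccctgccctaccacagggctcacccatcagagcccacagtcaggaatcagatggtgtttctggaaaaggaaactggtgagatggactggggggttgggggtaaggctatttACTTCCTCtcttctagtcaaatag
In windows from 250 bases before to 50 after the start, searched on both strands, GAGGAAGT was found in 2 of the 8 marker genes, Fcgr4 and Adgre4, and in 1052 of 32851 RefSeq promoters (3.2%). In Adgre4 it lay after the start. The Nr4a1 response element AAAGGTCA was in none of the 8 and in 1.51% of all promoters, and the octamer ATTTGCAT bound by Pou2f2 was in none of the 8 and in 1.74%. The PU.1 gene itself, Spi1, was higher in members than in classical monocytes in 8 of 8 libraries, at a median log2 ratio of 0.36.

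The name of these cells was set beside genes that the rule did not use. The gene lists were chosen with earlier results of these data known, so they are not an independent check. Against classical monocytes of the same library (3981 cells in all, with a UMI of Ly6c2 and of at least 2 of 8 classical genes, Ccr2, Vcan, F13a1, Fn1, Chil3, Ms4a4c and Plac8 among them), members were higher in 8 of 8 libraries for Nr4a1, by a median of 1.69 on the log2 scale of plain CPM (UMIs scaled to a library sum of 1000000) plus 1. The same held for Ace, the angiotensin-converting enzyme, by 2.88, for Itgal by 1.91, for the fractalkine receptor Cx3cr1 by 0.83, for the sphingosine phosphate receptor S1pr5, which takes part in exit of these monocytes from the marrow, by 3.40, for the adhesion molecule Ceacam1 by 1.79 and for the eosinophil-type ribonuclease Ear2 by 2.89. The scavenger receptor Cd36 and the fatty acid binding protein Fabp4 were higher by 3.01 and 4.19, and Pparg, the lipid-sensing nuclear receptor, by 3.04. Of the 7 survival genes, 3 were higher in all 8 libraries, Bcl2a1a and Bcl2a1d at 2.33 and 2.40 and the growth factor receptor Csf1r at 0.66, and 1, Mcl1, was lower in all 8 at -0.27. Of the 16 nonclassical genes outside the rule, 12 were higher in all 8 libraries and none lower in all 8. Among the 7913 genes with a mean of at least 10 CPM, 8% were higher and 4.18% lower in all 8. All 16 nonclassical genes outside the rule were detected in each of the 10 libraries with members.

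Lower in members in 8 of 8 libraries were Mmp8, a neutrophil-type collagenase, at -2.33, the LPS co-receptor Cd14 at -2.19, the chemokine receptor Ccr1 at -1.65, the high-affinity IgG receptor Fcgr1 at -1.40, the inhibitory receptor Lilrb4a at -1.05, and Vim and S100a6, parts of the cytoskeleton and of calcium signalling, at -1.73 and -1.62. Ly6c2 and Ccr2 stood at -3.34 and -2.86, which the choice of the classical cells fixed. Of the listed classical genes that did not choose those cells, Hp and Irf8 were also lower in members of lung replicates 4, 5 and 6. Clec4e went the other way, at 149, 101 and 75.0 CPM in those members against 85.6, 50.6 and 69.8 in classical monocytes. Of 14 interferon-stimulated genes with a mean of at least 10 CPM, 5 were lower in all 8 libraries and none higher in all 8, and 13 had a median below 0. Usp18, which damps interferon signalling, was at -1.72 and Bst2 at -1.24 in 8 of 8 libraries. These ratios are over the summed members of a library and were not tested, since both cell classes were chosen by expression. They do not describe every member, and in primary tumor replicate 4 the 8 members with exactly 3 markers held little Ace or Nr4a1.

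**Figure D1:**
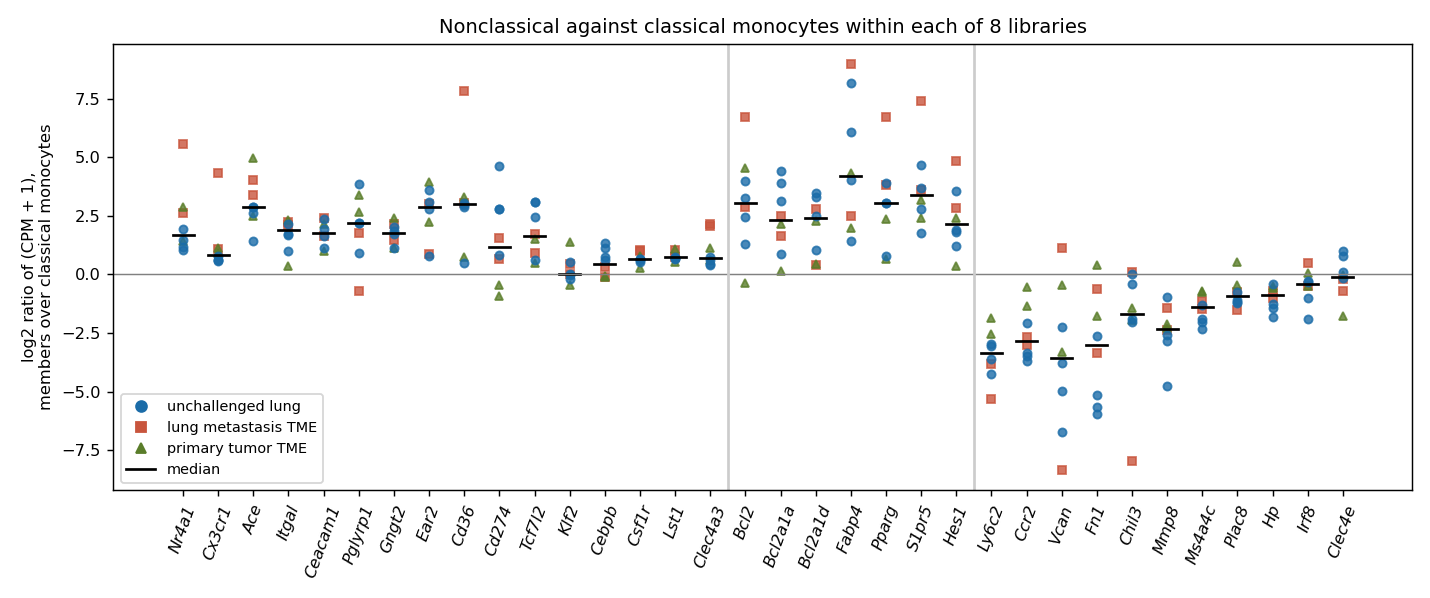
Log2 ratio of CPM plus 1 of members over classical monocytes for nonclassical, classical and other genes, with 1 point for each of the 8 libraries with both classes and a bar at the median. Nr4a1, Ace and S1pr5 lie above 0 in every library, with medians of 1.69, 2.88 and 3.40, and Mmp8 lies below 0 in every library. Clec4e, listed as a classical gene, lies above 0 in lung replicates 4, 5 and 6.

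Against the 3658 macrophages with C1q transcripts, members were higher in 10 of 10 libraries for Nr4a1 (median log2 ratio 3.63), Ace (3.73), Itgal (3.37), S1pr5 (4.84), Pglyrp1, a peptidoglycan-binding protein (5.62), and the transcription factor Klf2 (1.33). They were lower in 10 of 10 for the mannose receptor Mrc1 (-5.43), the tetraspan protein Ms4a7 (-7.19), the efferocytosis receptor Mertk (-4.18), the lipid receptor Trem2 (-3.12), Apoe (-1.70), the macrophage factor Maf (-2.95) and the antigen presentation genes H2-Aa and Cd74 (-3.26 and -2.41). Cx3cr1 did not separate these classes, at 0.33 with 6 libraries higher and 4 lower, nor did Cd36, at 0.32 with 7 higher and 3 lower. The genes named here are a selection. The share of all genes that went the same way in 10 of 10 libraries is not given.

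The members were not uniform in how many markers they carried. Exactly 3 markers were seen in 1592, exactly 4 in 851 and 5 or more in 2184, while 2938 cells that met the other conditions had exactly 2 and were left outside. In lung replicate 5, Ace, which was not in the rule, stood at 221 CPM in cells with exactly 2 markers, 536 in those with exactly 3, 904 in all members and 120 in classical monocytes. In the shallow lung replicate 6 the same steps were 261, 349, 503 and 185 CPM. In lung replicate 4 the cells with exactly 3 markers had 271 CPM of Ace, below the 420 of cells with exactly 2, and held 1015 CPM of Ly6c2 and 2001 CPM of Chil3, a chitinase-like protein of classical monocytes and alveolar macrophages, against 227 and 150 in all members. The cells just inside the threshold therefore included some with high levels of genes that mark other cells.

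Shares of members with a UMI were compared after each cell was thinned to 1000 UMIs, with neutrophils of the same library as cells that should lack nonclassical genes. Nr4a1 was found in 36.3% to 52.9% of members in lung metastasis, in 48.3% in primary tumor replicate 1-3 and in 35.6% to 53.4% in unchallenged lung, against 1.57% to 18.6% of neutrophils. Without thinning the member shares were 57.9% to 94.1%. Median depths were 2034 to 7698 UMIs for these members and 1478 to 3566 for neutrophils. Ace was found in 31.0% to 61.8% of members. Cx3cr1 was found in 31.1% to 50.0%. Its neutrophil shares are not reported here, so these values are not set against a background. Neutrophils of lung replicate 6 carried the most of these transcripts, with Ace in 17.8% and Cd36 in 34.4%, against 37.1% and 38.0% of its members.

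The first question was how common members were in each tissue. As a percent of all cells, members made up 11.7, 8.59, 19.1 and 10.6 in unchallenged lung replicates 1, 4, 5 and 6. In lung metastasis they made up 14.6, 5.14, 0.29 and 2.03 in replicates 1-3, 4, 5 and 6. In primary tumor they made up 4.49 and 0.512 in replicates 1-3 and 4, and none was found in replicates 5 and 6, where 0 of 303 and 0 of 2383 cells allow shares of up to 1.21% and 0.155% (exact 95% binomial limit, counting error only). Replicates 5 and 6 held 2 cells each with a Ptprc UMI, so these limits say little about members among leukocytes. Lung and primary tumor did not overlap, while the metastases overlapped both.

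The means were 12.5 ± 4.57% (SD, n = 4) in unchallenged lung, 5.53 ± 6.40% (n = 4) in lung metastasis and 1.25 ± 2.17% (n = 4) in primary tumor. Primary tumor minus lung was -11.2 percentage points (exact permutation p = 0.0286, two-sided, the smallest that 4 against 4 libraries allow, and 0.171 adjusted over 6 tests). The differences between metastasis and lung (exact permutation p = 0.143) and between primary tumor and metastasis (exact permutation p = 0.2) were within the spread of the libraries. The library names carry a run number, and what a run stands for is not given. These runs gave different signs for metastasis against lung, at 2.96 points in run 1, -3.45 in run 2 and -13.7 in run 3. Primary tumor was lower than lung in each run, at -7.20, -8.08 and -14.8 points. The run 3 value rests on primary replicates 5 and 6, which had almost no leukocytes (2 Ptprc cells each) that could be members. Both also enter the permutation tests above. Primary tumor minus metastasis was -10.2, -0.29 and -2.03 points in the 3 replicate numbers that share mice (mean -4.16, exact sign flip p = 0.25, the smallest that 3 pairs allow, a test added after seeing the data), and -4.63 in replicate 4. The share of Ptprc cells, which the gate sets in part, differed widely between these libraries, and its part in the differences was not tested. Primary replicate 4 had 0.512% members with 77.5% Ptprc cells, and lung replicate 1 had 11.7% members with 36.7%. In other libraries both were low. Primary replicates 5 and 6 had 0 members with 0.66% and 0.0839% Ptprc cells, and metastasis replicate 5 had 0.29% members with 2.26%. Over cells with a Ptprc UMI, where primary replicates 5 and 6 drop out, members made up 21.7% of lung, 10.8% of metastasis and 3.31% of primary tumor cells, and no pair passed (exact permutation p = 0.114 and 0.133, the second being the smallest that 2 against 4 allow).

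Taking members as a share of monocytes leaves other cells out of the denominator. Among nonclassical and classical monocytes together, members made up 82.4, 74.8, 72.6 and 45.9% in unchallenged lung, 82.7, 97.1, 68.2 and 65.6% in lung metastasis and 29.4 and 25.4% in primary tumor. Both primary tumor libraries lay below all 8 others. Classical monocytes were the larger class in them and in lung replicate 6. The means were 68.9 ± 15.9% (n = 4) in lung, 78.4 ± 14.6% (n = 4) in metastasis and 27.4 ± 2.84% (n = 2) in primary tumor. Primary tumor minus lung was -41.5 points and primary tumor minus metastasis -51.0 points, each at an exact permutation p = 0.133, which is the smallest that 2 against 4 libraries can give, so the design could not pass 0.05. Metastasis and lung did not differ beyond the spread of the libraries (9.48 points higher in metastasis, exact permutation p = 0.429).

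The share in primary tumor was also lower inside runs and, by a smaller margin between the nearest libraries, after equalizing depth. The difference from lung was -53.0 points in run 1 and -49.4 in run 2, and the difference from metastasis -53.3 and -71.7 points. With cells thinned to 1000 UMIs the shares were 67.8% in lung, 92.2% in the 3 metastasis libraries that kept at least 20 monocytes and 28% in primary tumor. Those 3 metastasis libraries then lay above every lung. Their mean was 24.5 points higher (exact permutation p = 0.0571, the smallest that 3 against 4 allow). Metastasis replicates 4 and 6 then held 24 and 20 members beside only 1 classical monocyte each. Before thinning, replicate 6 held 21 members and 11 classical monocytes, so its share rose mainly because classical cells no longer met their rule. Whether the higher mean reflects tissue or that loss was not tested. Lung replicate 6 was then at 37.2%, close to primary tumor replicate 1-3 at 35%, and the other lungs were at 75.4% to 82.2%. Metastasis replicate 5, left with 8 members and 5 classical monocytes, stood at 61.5%, and the mean of all 4 metastasis libraries was 84.5%. Lung replicate 6 is the library that pulled the lung mean down, and without it lung stood at 76.6% and metastasis 1.81 points above it.

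**Figure D2:**
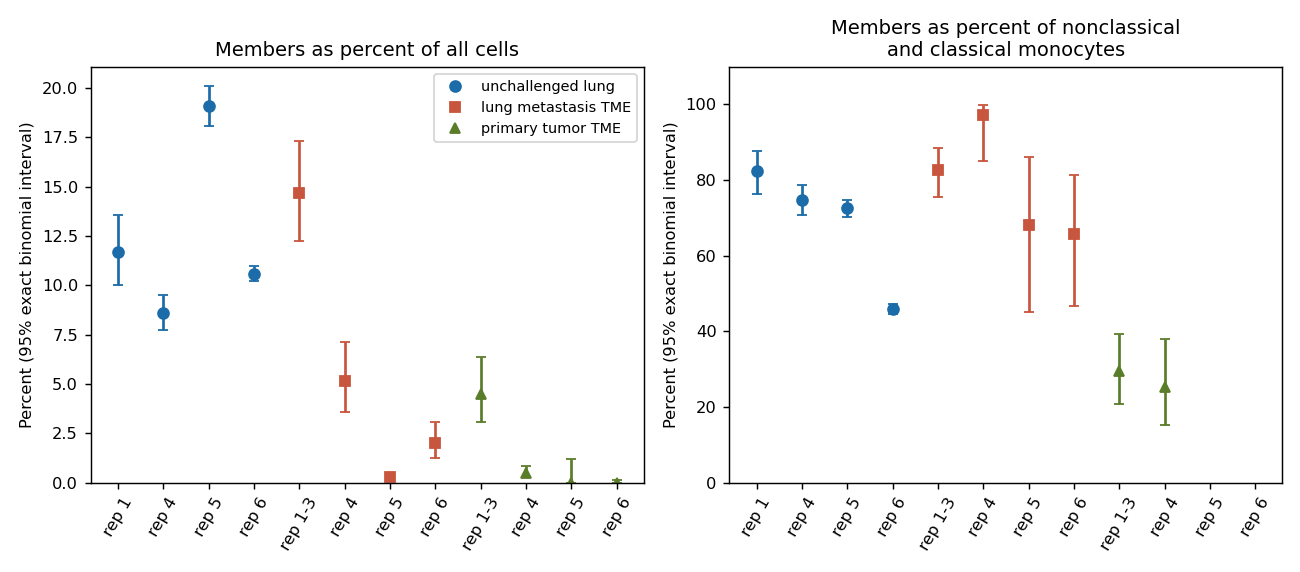
Members as percent of all cells (left) and as percent of nonclassical and classical monocytes together (right), 1 point per library with exact 95% binomial intervals for counting error. On the right the primary tumor libraries lie at 29.4% and 25.4%, below the 8 libraries of lung and metastasis at 45.9% to 97.1%.

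Next, expression by members was compared between tissues on UMI sums per library, with 1 library as 1 replicate. Fitted with edgeR's quasi-likelihood test were 8 libraries with at least 20 members, which gave lung metastasis (n = 3) against unchallenged lung (n = 4) at 9226 genes. Levels in what follows are CPM scaled by TMM factors. In bulk sums a lower level cannot be told apart from fewer cells that express the gene.

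In lung metastasis the tested nonclassical genes stood close to their level in unchallenged lung. The rule asked for at least 3 nonclassical markers in both tissues, so this covers only cells picked for that program. With 3 against 4 libraries, the lack of a call does not show equal levels. Ace was at 691, 706 and 564 CPM in metastasis replicates 1-3, 4 and 6, and at 859, 799, 973 and 474 in the 4 lungs. Nr4a1 was at 553, 891 and 582 against 606, 667, 899 and 463 CPM. The groups overlapped for both genes, and the log2 fold changes were -0.15 and 0.13. Of the 16 nonclassical genes outside the rule, all tested, none was called and none had an unadjusted p below 0.05. Their median was -0.14 with a range of -0.33 to 0.50, beside a median of -0.04 over all genes. The 13 adhesion genes were alike, with a median of -0.08 and none at an unadjusted p below 0.05. Of the rule genes, as a description, Cd300e, an activating receptor, stood at 224, 351 and 406 CPM in metastasis and 340, 367, 325 and 132 in lung, and Fcgr4 at 445, 631 and 494 against 342, 430, 392 and 253.

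Only 2 of the 9226 genes (0.0217%) passed the adjusted p of 0.05, and both are pigment cell or neural genes. Dct, dopachrome tautomerase of the melanin pathway (chromosome 14, GRCm38 118012790 to 118052244), was at 353, 225 and 776 CPM in members of metastasis and at 5.13, 0, 0.527 and 2.09 in lung, with a log2 fold change of 8.28 ± 0.72 (SE, edgeR adjusted p = 0.00416). Syt4, a synaptotagmin, was at 42.2, 15.8 and 79.4 CPM against 0, 0, 0.175 and 0.131, at 8.04 ± 0.90 (edgeR adjusted p = 0.0211). In UMIs these were 279 of Dct in the 3 metastasis libraries and 23 in the 4 lungs, a ratio of 266 per UMI sequenced (exact interval 174 to 427, counting error only), and 29 and 2 of Syt4. The tissues did not overlap for either gene.

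The same RNA was in neutrophils. After thinning to 1000 UMIs, Dct was found in 27.4% of members and 40.3% of neutrophils of metastasis replicate 1-3, in 71.4% and 72.4% in replicate 6, and in 24.1% and 41.7% in primary tumor replicate 1-3. In lung the Dct share was at most 0.346% of members and 0.146% of neutrophils. In these 3 tumor libraries the member share of Dct lay below that of neutrophils, in metastasis replicate 6 by little. These shares therefore do not show expression by members, and where the RNA came from was not tested. Metastasis replicate 4, with 8 neutrophils, has no such comparison. Syt4 was found in 5.31% of members (exact 95% interval 1.97% to 11.2%) and 4.65% of neutrophils of metastasis replicate 1-3, and in 19.05% (5.45% to 41.9%) and 21.3% in replicate 6, so the neutrophil share lay inside the interval of the members. Without metastasis replicate 6, whose counts also stand under a melanoma name, Dct was at 7.69 (edgeR adjusted p = 0.0316). The 6 melanoma genes summed to 286 to 1005 CPM of plain counts in members of the 3 fitted metastasis libraries, 6519 in metastasis replicate 5, which was too small for this fit, 165 to 345 in primary tumor and 0 to 5.79 in lung, so this RNA moved with the tissue in both comparisons with lung. Its part in other differences was not tested. Without metastasis replicate 1-3, Dct was at 8.44 but no longer called (edgeR adjusted p = 0.0533, against 16 of 17 alternatives in which it was called), and Syt4 was called in 8 of 17, with adjusted p-values up to 0.821. Leaving out metastasis replicate 1-3 or 6, or lung replicate 1, 4 or 5, each ended the call of Syt4.

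**Figure D3:**
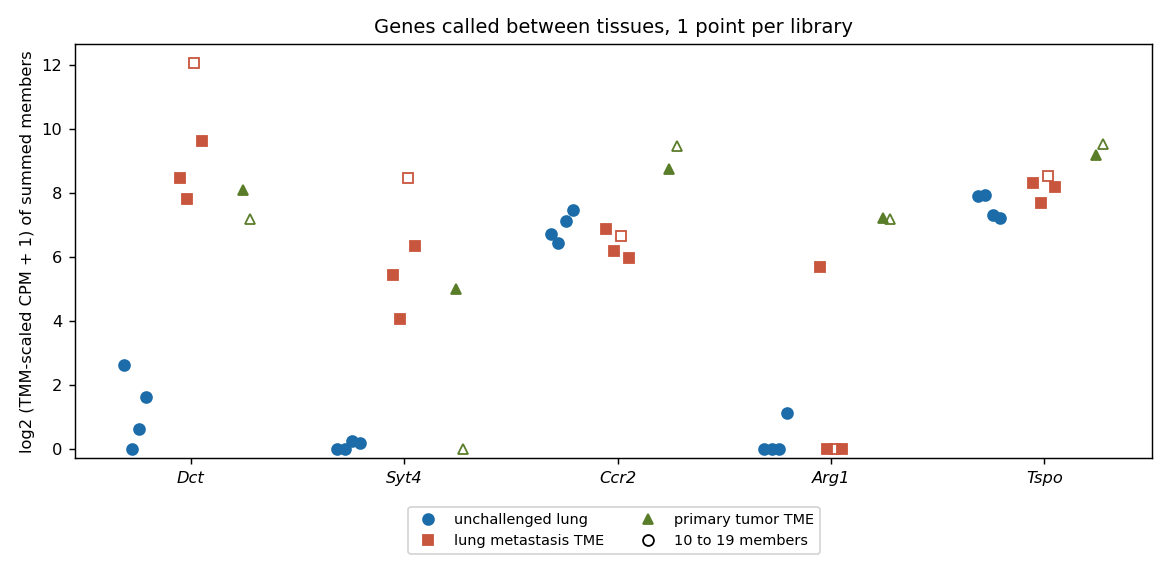
Levels as log2(TMM-scaled CPM + 1) of the 5 genes called in a comparison with unchallenged lung, 1 point per library, with open symbols for libraries of 10 to 19 members. Dct is at 0 to 5.13 CPM in lung and at 225 CPM or more in the metastasis libraries, Syt4 is at 0 to 0.175 CPM in lung, and Ccr2, Arg1 and Tspo are higher in both primary tumor libraries than in every lung.

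No other gene passed, and what follows in lung metastasis are values at an unadjusted p below 0.05, which 151 genes (1.64%) reached on the higher and 181 (1.96%) on the lower side. Of the 7 MHC class II genes, which load and show peptides to CD4+ T cells, all 7 had lower fitted values than in lung and 5 reached that level, with a median log2 change of -1.42 (range -1.70 to -0.57). H2-Ab1, the beta chain of the I-A molecule (chromosome 17, GRCm38 34257689 to 34269419), was at 295, 86.8 and 26.5 CPM in metastasis and 577, 464, 493 and 422 in lung, which do not overlap, at -1.63 ± 0.52 (unadjusted p = 0.0103 and adjusted p = 1 in edgeR). H2-Aa was at 445, 82.8 and 26.5 against 763, 523, 538 and 439 CPM, where metastasis replicate 1-3 reached the lowest lung. Over 17 alternatives the log2 change ranged from -2.87 to -1.10 for H2-Ab1 and from -3.14 to -0.64 for H2-Aa. Each was called in 1 of them. Cd74, the invariant chain that escorts these molecules, was at 1963, 312 and 609 against 4344, 2716, 2617 and 1471, and Ciita, their transcriptional activator, at 15.8, 0 and 0 against 33.3, 16.1, 27.7 and 27.4. Thinned shares of H2-Aa were 10.6, 5.88 and 0% of members in metastasis and 16.9, 11.2, 19.9 and 24.6% in lung, where 2.33% to 28.8% of neutrophils also carried it, so that lung replicate 6 was at the level of background for this gene.

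**Figure D4:**
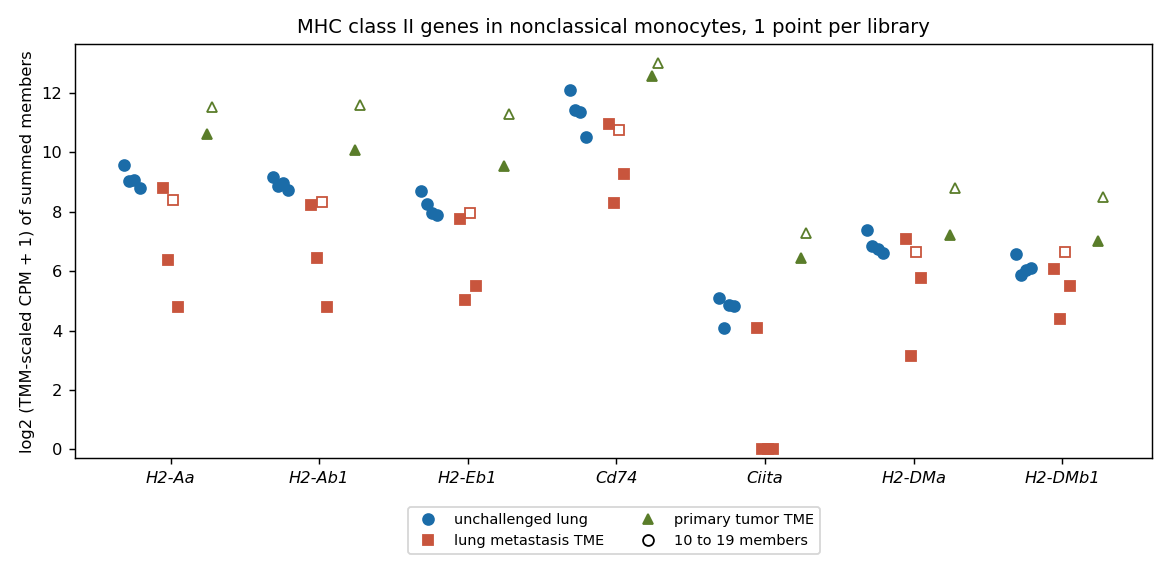
Levels as log2(TMM-scaled CPM + 1) of the 7 MHC class II genes in members, 1 point per library. The 3 fitted metastasis libraries lie below every lung for H2-Ab1, H2-Eb1 and Ciita, and the primary tumor libraries lie above every lung for 6 of the 7 genes, H2-DMa overlapping, with H2-Ab1 at 26.5 to 295 CPM in those metastasis libraries, 316 in metastasis replicate 5, 422 to 577 in lung and 1069 and 3113 in primary tumor. Random order of labels alone separates 2 from 4 libraries at a rate of 0.133 and 3 from 4 at 0.0571.

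Among the 12 classical monocyte genes, 4 were higher and 1 lower at that level. Hp, haptoglobin, was at 427, 398 and 485 CPM in metastasis and 235, 254, 166 and 245 in lung, without overlap, at 1.03 ± 0.23 (unadjusted p = 0.00115 in edgeR). Clec4e, the mycobacterial cord factor receptor, is on this list although members exceeded classical monocytes for it in lung replicates 4, 5 and 6. It was at 208, 189 and 203 CPM in metastasis against 97.4, 167, 109 and 70.7 in lung, also without overlap. Ly6c2, the surface antigen that sets classical monocytes apart, went the other way, at 58.0, 7.89 and 17.6 against 112, 255, 73.0 and 126 CPM. Fn1, fibronectin, was at 137, 59.2 and 688 against 19.2, 19.03, 28.4 and 104, and neutrophil S100a8 at 4736, 118 and 7020 against 496, 272, 1179 and 2183, so the libraries of metastasis were far apart in transcripts of other cells.

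Of 12 inflammatory genes tested, 9 had higher and 3 lower fitted values, and the 3 at an unadjusted p below 0.05 were chemokines. Ccl3 was at 148, 442 and 70.6 CPM in metastasis and 79.5, 53.2, 95.8 and 76.0 in lung, which overlap, and Cxcl2, which draws in neutrophils, at 464, 130 and 406 against 25.6, 118, 92.3 and 164. The log2 fold changes were 1.67 and 1.76, and for Ccl4 1.80. Without metastasis replicate 4, which held the highest level, Ccl3 was at 0.69, and it ranged up to 2.21 over 17 alternatives. Of 14 interferon-stimulated genes 13 had lower fitted values, with a median of -0.45 and 3 at that level, among them Ifit3, which binds viral RNA complexes, at a log2 change of -1.65. All 12 glycolysis genes had higher fitted values with a median of 0.52, and none reached an unadjusted p below 0.05. Mif, a cytokine-like tautomerase named after its values were seen, was at 198, 90.7 and 300 against 64.1, 53.7, 41.6 and 56.2 CPM (log2 1.89 ± 0.35, edgeR adjusted p = 0.69). It was called under 4 alternatives, DESeq2 (adjusted p = 2.39e-05), no low-count filter (0.00639), the replicate number as a block (0.00498) and without lung replicate 6 (0.0425), the last 3 in edgeR. Transcripts of alveolar type 2 and club cells, 6 genes, summed to 206, 110 and 2106 CPM of plain counts in the 3 fitted metastasis libraries and 275, 24.4, 3725 and 14995 in lung, which overlap widely, and none of the 6 had an unadjusted p below 0.05.

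Primary tumor had members in 2 libraries, 30 cells in replicate 1-3 and 16 in replicate 4, and could be compared only when libraries with 10 or more members were let in. This fit of 10 libraries tested 5846 genes and used metastasis replicate 5 (15 members) as well. Against unchallenged lung (n = 4), 3 genes were called (0.0513%), all higher in primary tumor (n = 2) at an adjusted p = 0.0333 each in edgeR, and at an unadjusted p below 0.05 there were 358 higher (6.12%) and 362 lower (6.19%).

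Ccr2, the chemokine receptor by which classical monocytes leave the marrow and enter inflamed tissue (chromosome 9, GRCm38 124101950 to 124113557), was at 424 and 698 CPM in primary tumor and at 104, 84.4, 138 and 174 in lung, a log2 fold change of 2.25 ± 0.35. Arg1, arginase of tumor-associated myeloid cells (chromosome 10, GRCm38 24915221 to 24927484), was at 148 and 145 CPM against 0, 0, 0 and 1.18. Tspo, a cholesterol-binding protein of the outer mitochondrial membrane, was at 584 and 727 against 237, 243, 157 and 148, at 1.88 ± 0.30. None of the 3 overlapped, which random order of 2 and 4 libraries gives for a gene at a rate of 0.133. With the run number as a block, Ccr2 was still called at 2.59 (edgeR adjusted p = 0.0273). Arg1 was at 7.76 (0.122) and Tspo at 1.83 (0.105), and Fn1, Dct and Ptgds were called instead. With the replicate number as a block, which joins different mice here, none of the 3 was called (adjusted p from 0.0936 to 0.24), and Fn1, Dct and Ptgds were. Ptgds, a prostaglandin D synthase, is named after its values were seen. Ccr2 stood near the lung level in the fitted metastasis libraries, at 116, 71.0 and 61.7 CPM.

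MHC class II was higher in primary tumor for 7 of 7 genes, each at an unadjusted p below 0.05 and none past the adjusted threshold, with a median log2 change of 2.13 (range 1.41 to 2.58) beside -0.04 for all genes. H2-Aa was at 1567 and 2909 CPM against 439 to 763 in lung (edgeR adjusted p = 0.21), H2-Ab1 at 1069 and 3113 against 422 to 577 (edgeR adjusted p = 0.146) and Cd74 at 6085 and 8146 against 1471 to 4344. Of 13 macrophage genes, 12 had higher fitted values and 7 reached that level, among them the lipid receptor Trem2 at a log2 change of 2.66 (edgeR adjusted p = 0.113). Of 11 genes of Fc receptors and their signalling, 7 had higher and 4 lower fitted values, and 5 reached that level, all higher. The inhibitory Fcgr2b was at 191 and 427 against 65.6 to 121 (log2 1.89, edgeR adjusted p = 0.0733), while the rule gene Fcgr4, as a description, was at 246 and 155 against 253 to 430. Of 8 glycolysis genes tested, 6 were higher at that level, Ldha by 1.30. C1q macrophages were 292 of 668 cells in primary tumor replicate 1-3 and 2262 of 3123 in replicate 4. In lung they were 36 of 1326, 39 of 4085, 41 of 6009 and 778 of 25966. No neutrophil shares are given for these genes in primary tumor, and the part of RNA from other cells in these differences was not tested.

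Nonclassical genes were on the lower side in primary tumor. Of the 16 outside the rule, 13 had lower fitted values and 5 reached an unadjusted p below 0.05, with a median of -0.62. Cd36 was at 98.3 and 87.3 CPM against 394, 376, 760 and 478 in lung, a log2 change of -2.30 (edgeR adjusted p = 0.146). S1pr5 was at 49.2 and 19.4 against 208, 223, 201 and 77.8, and Cd274, the checkpoint ligand PD-L1, at 12.3 and 29.1 against 105, 93.2, 114 and 67.1. Pecam1, an adhesion molecule shared with endothelium, was at 18.4 and 29.1 against 100, 121, 68.6 and 117, while endothelial markers summed to 9.72 to 11.9 CPM of plain counts in primary members and 137 to 510 in lung. The groups did not overlap for these 4 genes, a separation that random order of 2 and 4 libraries gives at a rate of 0.133. The share of all genes so separated is not given here.

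The members of primary tumor replicate 4 fell into 2 unlike sets of 8 cells by the number of rule markers, and the levels of that library came from unlike cells. On plain CPM, its 8 cells with exactly 3 markers held 14.9 of Ace, 89.4 of Nr4a1 and 0 of Cd36, with 924 of Ccr2, 4261 of H2-Aa, 2011 of Fn1 and 209 of Arg1 (14 UMIs). Its 8 cells with 4 or more markers held 726 of Ace, 587 of Nr4a1 and 251 of Cd36, with 279 of Ccr2, 391 of H2-Aa, 27.9 of Fn1 and 27.9 of Arg1 (1 UMI). Lung cells with 4 or more markers held 608 to 928 of Ace, 67.4 to 166 of Ccr2 and 415 to 615 of H2-Aa. Primary replicate 1-3 was different, since its 27 cells with 4 or more markers held 433 of Ccr2, 1553 of H2-Aa and 153 of Arg1 beside 560 of Ace and 535 of Nr4a1.

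With 4 or more markers required (libraries of at least 8 such cells), no gene was called against lung in edgeR (468 of 5357 at an unadjusted p below 0.05). Ccr2 was then at 1.79 (adjusted p = 0.266), Tspo at 1.48 (0.205), Arg1 at 8.14 (0.0677), H2-Aa at 1.09 (0.629) and H2-Ab1 at 0.75. Over 15 alternatives, Ccr2 ranged from 1.79 to 2.59 and was called in 4, with adjusted p-values from 9.87e-05 to 0.7. Arg1 was called in 4 of 14, with adjusted p-values up to 0.682, and Tspo in 4 of 15, up to 0.7. No gene was called without metastasis replicate 1-3 or without lung replicate 1, 4 or 5, and 1 gene was called without metastasis replicate 6. Leaving out primary replicate 4 or 1-3, with 0 and 1 genes called, leaves 1 primary tumor library that is assumed to vary like the other tissues, so these fits do not show how primary tumor libraries vary. Classical monocytes and macrophages of that library carried the same genes, Ccr2 at 700 CPM in members, 1024 in classical monocytes and 603 in C1q macrophages, and H2-Aa at 2915, 1697 and 3882.

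**Figure D5:**
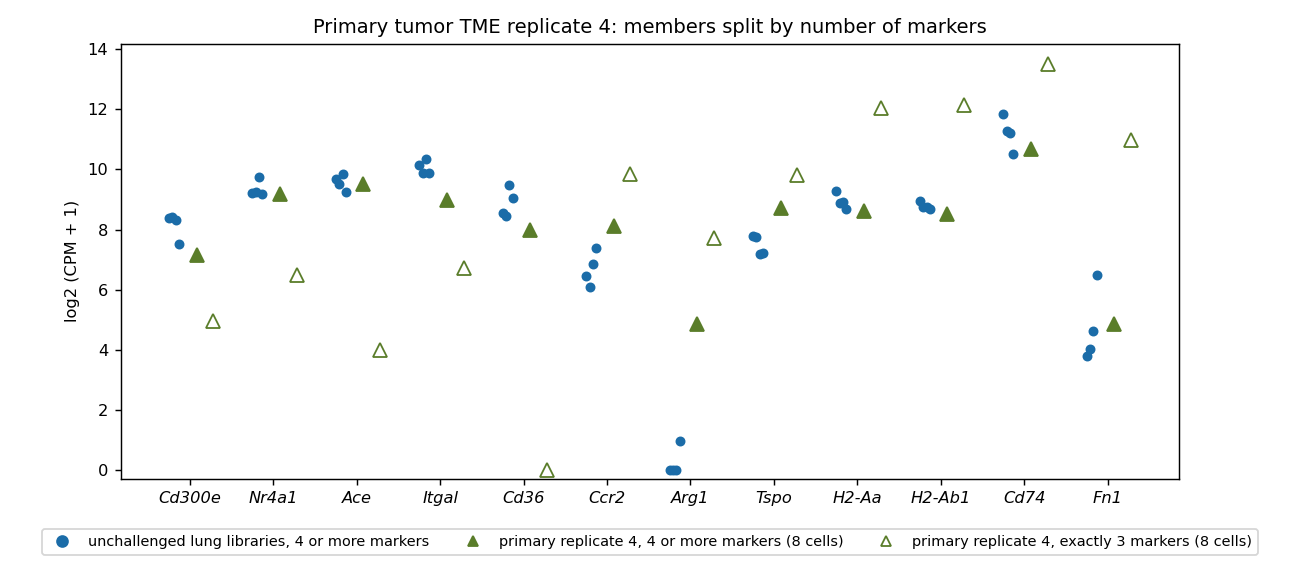
Levels as log2(CPM + 1) in lung members with 4 or more markers (1 point per library) and in primary tumor replicate 4 split into its 8 cells with 4 or more markers and its 8 with exactly 3. The first set lies near lung for Ace, at 726 CPM, and H2-Aa, at 391, and the second is low for Ace, at 14.9, and high for Ccr2, H2-Aa and Fn1.

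Between primary tumor and lung metastasis, no gene was called in edgeR (0% of 5846, with 243 or 4.16% higher and 234 or 4% lower at an unadjusted p below 0.05), while DESeq2 called 34. With the replicate number as a block, Ccr2 was called at 2.85 ± 0.44 (edgeR adjusted p = 0.0395, from 1.42e-05 to 0.912 over 15 alternatives), as were Ngp and Wfdc21, neutrophil granule genes that were lower in primary tumor. Of the numbers with members in both tissues, 1-3 shares mice and 4 does not. Nearest without the block were Ccr2 at 2.67 ± 0.40 (edgeR adjusted p = 0.0546) and H2-Ab1 and H2-Eb1 at 3.57 and 3.68 (0.0904 each). All 7 MHC class II genes were higher in primary tumor at an unadjusted p below 0.05. H2-Eb1, beta chain of the I-E molecule, was at 750 and 2512 CPM in primary tumor and 216, 31.6, 250 and 44.1 in the 4 metastasis libraries. Ly6c2 was at 375 and 155 against 58.0, 7.89, 83.2 and 17.6, and Cd274 at 12.3 and 29.1 against 121, 146, 33.3 and 106, with log2 changes of 2.87 and -2.54 (edgeR adjusted p = 0.226 and 0.217). The 3 comparisons share libraries, so their fold changes are not independent of each other.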

How the data were processed

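Values deposited by the authors are counts of UMIs per gene and cell, made with Cell Ranger 6.1.1 on GRCm38 and, per the methods of the study, filtered by quantiles of detected genes and of mitochondrial and ribosomal content. A deposited log-normalized table was not used. The counts covered 110283 barcodes under 24 library names, of which 5 were identical to another name and were counted once (100359 cells). No doublet caller was run.

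The members and lists were chosen with earlier results of these data known. Classical monocytes were cells outside the members with a UMI of Ly6c2 and of at least 2 of 8 classical genes, with fewer than 2 C1q genes and no lymphocyte or fibroblast marker, and neutrophils cells with at least 3 neutrophil markers. UMIs of members were summed per library. Libraries with at least 20 members were fitted with edgeR 4.0.16 (filterByExpr, TMM, quasi-likelihood test, Benjamini-Hochberg over all genes tested, called at an adjusted p below 0.05). The limit of 10 members, and with it every comparison with primary tumor, was chosen after seeing the data. DESeq2 1.42.0 was the alternative. Shares were compared by exact permutation of library labels, two-sided. Ratios inside a library used plain CPM with a pseudocount of 1. Intervals and limits are exact at 95% and cover counting error only, and the p-values measure the spread between these libraries. Named genes were those of the lists, and up to 10 called genes in each direction, given a mean level of 50 CPM or more and libraries that do not overlap. Of 220 listed genes, 1 was absent from the files, and some are not reported here. The fit was tested on simulated data. Gene positions are from GENCODE vM21 and promoters from RefSeq. Python 3.11.15, numpy 2.4.6, scipy 1.17.1, pandas 2.3.3, matplotlib 3.10.9 and R 4.3.3 were used.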

Additional observations from a re-analysis of the deposited data

Results flagged for a closer look

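Of 45 groups of 4 libraries, 5 held a library that lay far from the others by Dixon's criterion, which chance would give in about 1 of 20 groups. In primary tumor, members made up 4.49% of cells in replicate 1-3, against 0, 0 and 0.512% in the other libraries. The other 4 were lung replicate 6. Its members held 104 TMM-scaled CPM of Fn1, against 19.03 to 28.4 in the other lungs, and 27.2 CPM of Gpnmb, a membrane glycoprotein of macrophages and pigment cells, against 1.58 to 5.13. They held 1.18 CPM of Arg1, which was at 0 in the others, and 77.8 CPM of S1pr5, against 201 to 223. Lung replicate 6 was also the library with the lowest median depth of members, 2034 UMIs, and with 12135 CPM of Scgb1a1, a club cell secretory protein.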

How the results depend on the processing

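For metastasis against lung, 2 genes were called, against 14 with DESeq2, 13 without the low-count filter, 55 with the replicate block (15 higher, 40 lower), and 1 each with at least 4 markers, with the top 10% of UMI totals removed, and with members over 1% other-type UMIs removed. Leaving out 1 library gave 0 (without metastasis replicate 1-3) to 12 (without lung replicate 6). For primary tumor against lung the 3 calls became 55 with DESeq2, 6 with the rule applied at 1000 UMIs per cell, 0 with at least 4 markers, and 0 to 16 with 1 library left out, the 16 without lung replicate 6. For primary tumor against metastasis the 0 calls became 34 with DESeq2, 3 with the replicate block, 1 with the run as a block, 1 with the rule applied at 1000 UMIs, and 0 to 9 with 1 library left out. With 1 of the 2 primary tumor libraries left out, the other is assumed to vary like the other tissues. The cause was not tested.

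In metastasis against lung, Vcan turned from 3.37 to -0.83 with the top 10% of UMI totals removed. Arg1 turned from 5.32 to -2.90 with the replicate block and -3.25 without metastasis replicate 1-3, the only fitted metastasis library with Arg1 UMIs, and reached 7.96 without lung replicate 6. Of the fold changes under alternatives, 843 kept direction and side of the threshold, 57 passed it only there and 42 lost it. The percent of all cells and the share of monocytes kept their direction in the 36 and 28 alternatives to the whole comparisons. Within run 1 alone, metastasis minus lung in percent of all cells was 2.96 instead of -6.95.

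Same-numbered primary tumor and metastasis libraries share mice except in number 4. Same-numbered metastasis and lung libraries come from different mice. Their deviations correlated at 0.227 (number 4) and 0.0110 (number 6), against -0.224 to 0.181 in differently numbered pairs. So few pairs cannot show whether libraries of 1 number vary together. The block leaves 1 residual degree of freedom. It called H2-Aa at -3.01 (adjusted p = 3.9e-05), against adjusted p-values up to 1 elsewhere. Not run were a minimum of 50 members (1 metastasis library) and removal of every member with an other-type UMI (1 library left). Primary tumor rests on 46 members in 2 libraries.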

Other observations

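Single genes not described above, named with their values known, also differed within libraries. Against classical monocytes, members had more Tnf in 7 of 8 libraries (median log2 ratio 0.97 of plain CPM plus 1) and Nfkbiz, an inducible NF-kB cofactor, in 7 of 8 (0.93). The Notch target Hes1 was higher in 8 of 8 (2.17), as were Tcf7l2, a Wnt pathway factor (1.63), the Src family kinase Fgr (1.00) and the chemokine receptor Cxcr4 (0.84), while of 8 chemokine receptors 2 were higher and 3 lower in all 8 libraries. The galectins Lgals3 and Lgals9 were lower in 8 of 8, at -1.08 and -1.14, and the hypoxia-induced Bnip3 at -1.44. Against C1q macrophages, members had more Irf7 (1.68) and Zbp1, a sensor of nucleic acids (1.97), in 10 of 10 libraries, and less Abca1, the cholesterol exporter (-2.15), and Cxcl16 (-4.60) in 10 of 10.

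In primary tumor against lung, 8 of 11 lipid handling genes had lower fitted values, with a median of -1.13 and 3 at an unadjusted p below 0.05, beside 6.19% of all genes lower at that level. Pparg was at -1.49 there (edgeR adjusted p = 0.278). Of 10 interferon-stimulated genes tested, 8 had higher fitted values and 3 reached that level, with a median of 0.98, whereas 13 of 14 had lower values in metastasis against lung. Bst2, a surface protein induced by interferon, was at 252 and 320 TMM-scaled CPM in primary tumor, 81.7, 35.5, 66.6 and 26.5 in metastasis and 141, 188, 77.9 and 75.4 in lung. The difference between these comparisons was tested only as primary tumor against metastasis, where Bst2 was at 2.40 (edgeR adjusted p = 0.132).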
